A study of Mus musculus with 6 samples.

Results

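Tektins and other microtubule inner proteins coat the inside of the doublet microtubules that run the length of a motile cilium. Transcripts of 8 such genes (Tekt1, Tekt2, Tekt3, Tekt4, Efhc2, Enkur, Efcab6 and Mns1) were followed here in wild-type (WT) and Edf1 knockout ependymal cell cultures. They are the rows with these symbols among the 22851 gene symbols of the deposited count table. They were chosen by symbol, as tektins and inner proteins not named Cfap, with their knockout against WT log2 fold changes in view, and Tekt2 in particular as an axoneme gene whose level was not lower. The difference between the genotypes is therefore described for these 8 genes and not tested.

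Doublet microtubules consist of a complete A-tubule with an incomplete B-tubule attached to it. Proteins bound to their inner walls stiffen the doublets and hold them together while dynein motors bend the cilium. Tektins are coiled-coil proteins that form filaments inside the A-tubule. Ependymal cells line the brain ventricles and carry tufts of motile cilia that move cerebrospinal fluid, and their precursors switch on axoneme genes in bulk under the transcription factors FOXJ1 and RFX.

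The cultures came from brains of newborn (P0-P3) mice on a C57BL/6J background, either WT or carrying an Edf1 knockout made with CRISPR/Cas9. Radial glial cells, the progenitors that give rise to ependymal cells, were grown in serum and then differentiated for 6 days in serum-free medium, in both genotypes alike. Each genotype had 3 libraries, which the series describes as biological replicates without saying whether they came from separate animals or cultures, so the spread between them may be partly technical. The labels give neither the number of founder lines nor the edited position. Edf1 encodes a small transcriptional coactivator that also binds collided ribosomes.

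Total counts were 13071766 to 28087006 per library. In a principal component analysis the first component, with 60.7% of the variance, separated the genotypes, and the second, with 16.1%, separated WT replicate 2 (the library with the fewest counts) from the other WT libraries. Edf1 itself had 80.2 to 85.9 CPM (the count scaled to a common library size, after adjustment for composition) in the WT libraries and 9.84 to 13.2 CPM in the knockout libraries. Of 11 ependymal markers, among them Enkur, 10 were called lower in the knockout, and their summed level was 8097 to 8931 CPM in the WT libraries and 8041 to 8231 CPM in the knockout libraries. The sum includes Vim, the one of the 11 with a value above 0 (0.13). Of 10 microglial markers 9 were called lower (summed level 1876 to 2027 CPM in WT libraries, 1232 to 1254 CPM without Edf1). Of 9 tested markers of fibroblasts, mural and endothelial cells 8 were called higher (586 to 626 against 749 to 837 CPM over all 13 markers). Of 10 markers of radial glia and astrocytes 2 were called lower and 3 higher (4465 to 4618 and 4643 to 4825 CPM). Neuronal markers summed to 42.5 to 46.1 CPM in WT libraries and 37.8 to 41.0 CPM in knockout libraries, with 2 of 6 called lower. Oligodendrocyte lineage markers summed to 432 to 471 and 401 to 418 CPM, with 1 of 6 lower, and choroid plexus markers to 106 to 133 and 119 to 142 CPM, with 1 of 5 higher. Over all tested genes 14.2% were called lower and 12.7% higher. No marker was at 0 in every library, but Pecam1, Cdh5 and Cldn5 of endothelium were among those with too few counts to test. The part of these shifts in the values below was not tested, and in bulk RNA fewer ciliated cells and less RNA per ciliated cell cannot be told apart.

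Promoter windows were examined because most of the 8 genes were lower together and RFX and forkhead factors are the known regulators of axoneme genes. RefSeq windows of GRCm38.p6, from 250 bases before to 50 bases after an annotated start, were found for 7 of the 8 genes in 10 windows (Efcab6 had no entry). Among the tektins of the 8 genes, windows are shown for Tekt1 (the most abundant), Tekt2 (not lower) and Tekt3 (the lowest value). The window of Enkur, the most abundant of the 8, is also shown. Capitals mark matches to the RFX core GTTGCC or to the forkhead core TGTTTAC on either strand, and each window is written 5′ to 3′ on the strand of its gene.
Tekt1 promoter, chr11:72361833-72362132, minus strand: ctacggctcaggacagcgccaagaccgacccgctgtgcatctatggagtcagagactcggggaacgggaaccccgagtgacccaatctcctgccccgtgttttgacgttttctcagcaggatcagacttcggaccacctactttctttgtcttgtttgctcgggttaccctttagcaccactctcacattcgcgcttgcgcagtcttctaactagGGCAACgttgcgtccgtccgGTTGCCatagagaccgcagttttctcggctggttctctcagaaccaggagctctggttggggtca
Tekt2 promoter, chr4:126325639-126325938, minus strand: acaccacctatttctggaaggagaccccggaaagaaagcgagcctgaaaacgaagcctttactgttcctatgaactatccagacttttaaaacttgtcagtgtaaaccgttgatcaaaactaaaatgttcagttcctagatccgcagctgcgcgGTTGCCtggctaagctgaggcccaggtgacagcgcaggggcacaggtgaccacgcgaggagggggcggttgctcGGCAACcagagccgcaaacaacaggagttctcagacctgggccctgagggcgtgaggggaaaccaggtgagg
Tekt3 promoter, chr11:63061409-63061708, plus strand: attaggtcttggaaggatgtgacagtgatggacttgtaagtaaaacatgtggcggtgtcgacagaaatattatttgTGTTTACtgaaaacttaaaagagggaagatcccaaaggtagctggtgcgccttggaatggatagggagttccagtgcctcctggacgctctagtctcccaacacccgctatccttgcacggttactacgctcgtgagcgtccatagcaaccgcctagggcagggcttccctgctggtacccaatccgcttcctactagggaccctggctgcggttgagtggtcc
Enkur promoter, chr2:21205316-21205615, minus strand: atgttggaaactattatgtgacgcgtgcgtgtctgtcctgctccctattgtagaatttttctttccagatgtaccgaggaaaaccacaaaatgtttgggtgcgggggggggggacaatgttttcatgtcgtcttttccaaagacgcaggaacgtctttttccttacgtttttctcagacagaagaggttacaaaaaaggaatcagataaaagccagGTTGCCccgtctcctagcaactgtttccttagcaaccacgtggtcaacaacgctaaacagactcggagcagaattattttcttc
The core GTTGCC, which reads GGCAAC on the other strand, occurred in a window of 5 of the 7 genes (Tekt1, Tekt2, Tekt4, Enkur and Mns1), against 14.1% of all 27025 genes with a window and 12.5% of all 32851 windows. Of the 10 windows 6 held it, but 2 of these are overlapping windows of Tekt2 that share the same matches. In the Tekt1 window GGCAAC begins 35 bases and GTTGCC 15 bases before the start. The Tekt2 window shown also holds both, at 96 bases (GTTGCC) and 22 bases (GGCAAC) before the start. The windows of Tekt3 and Efhc2 hold neither. Whether the core bears on the fold changes was not tested. Enkur has 1 match, 34 bases before its start. The forkhead core TGTTTAC, or GTAAACA, was found in 1 of 7 genes, Tekt3, 174 bases before the start, against 4.05% of all genes (3.65% of windows). The E2F core TTCCCGC, or GCGGGAA, was in none of the 7, against 5.29% of all genes (4.6% of windows). These matches describe letters and not binding.

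All 8 genes had enough counts to be tested in the fit over 14243 genes. Per library, their counts ran from 8 (Tekt3) to 5886 (Enkur). EdgeR's quasi-likelihood test placed 7 of the 8 lower in the knockout at an adjusted p-value under 0.05, against 14.2% of all tested genes. The groups did not overlap, with the knockout below WT, for the same 7 genes, against 22.1% of all tested genes. These counts are given for orientation, since the values were known when the genes were chosen. The median log2 fold change was -0.98 over the 8 genes and 0.0029 over all tested genes. Without WT replicate 2 the values were -0.77 for Tekt1, -1.89 for Tekt3, -1.08 for Tekt4, -1.09 for Efhc2, -0.39 for Enkur, -1.17 for Efcab6 and -0.54 for Mns1, close to those given below for all libraries.

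**Figure D1:**
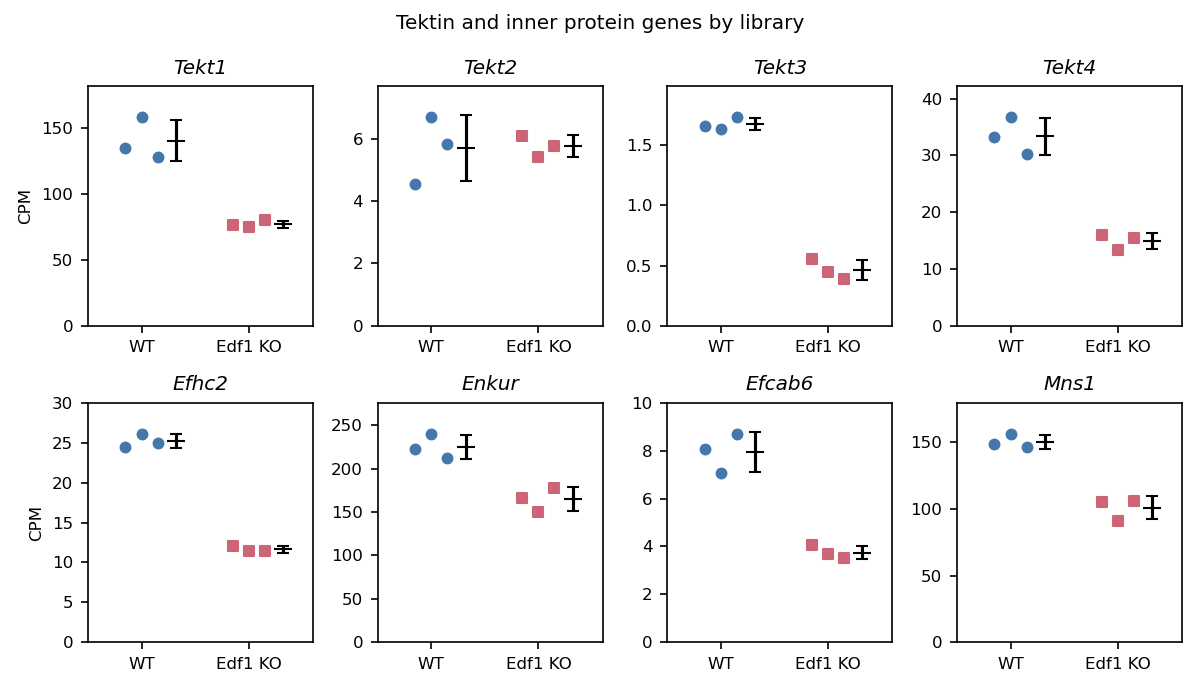
Normalised level (CPM, axis from 0, a scale of its own for each gene) of the 8 genes in the 3 WT (circles) and 3 Edf1 knockout (squares) libraries, with replicates 1 to 3 from left to right and the mean ± SD beside them in black. In every panel but that of Tekt2 the knockout libraries lie below all WT libraries.

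Among the tektins, Tekt1 was the most abundant. It had 135, 158 and 128 CPM in WT replicates 1, 2 and 3, and 76.5, 74.7 and 79.9 CPM in knockout replicates 1, 2 and 3. The lowest WT library was well above the highest knockout library. The means were 140 ± 15.6 CPM with Edf1 and 77.0 ± 2.65 CPM without it (SD, n = 3 each). Knockout libraries thus held 54.8% of the WT level, a log2 fold change of -0.86 (SE 0.074). Tekt1 lies on chromosome 11 (72344722 to 72362442, minus strand, GRCm38) and shares no exon sequence with another annotated gene.

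Tekt4, which encodes a tektin needed for normal sperm movement, showed a larger difference. Its level was 33.2, 36.7 and 30.2 CPM in the WT libraries and 16.0, 13.3 and 15.5 CPM in the knockout libraries. The groups were far apart relative to their spread, and the knockout mean was 44.9% of WT, a log2 fold change of -1.15 (SE 0.097). The gene is at chromosome 17, 25454615 to 25476602, plus strand.

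Tekt3, known from the sperm head and tail, was the least abundant of the 8 and had the lowest fold change. It had 44, 21 and 32 counts in WT replicates 1, 2 and 3, against 9, 8 and 11 counts in the knockout replicates. On the CPM scale the WT libraries had 1.66, 1.63 and 1.73 and the knockout libraries 0.553, 0.446 and 0.389. WT libraries were at 1.67 ± 0.0509 CPM, closer together than the counting intervals given below, so this SD understates their uncertainty. The knockout mean of 0.463 ± 0.0833 CPM was 27.7% of the WT mean. The log2 fold change of -1.88 had an SE of 0.30, the widest of the 8. With so few counts, the exact Poisson 95% interval was 1.01 to 2.49 CPM for WT replicate 2 and 0.253 to 1.05 CPM for knockout replicate 1. The intervals of this pair met at their ends, which does not show that the libraries agree within counting error. Those of WT replicates 1 (from 1.2 CPM) and 3 (from 1.18 CPM) lay above every knockout interval. Such intervals cover counting error only. Tekt3 lies on chromosome 11 (63061654 to 63094964, plus strand).

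Tekt2, a tektin required for sperm motility in mice, was the one of these 4 tektins whose groups overlapped. It had 4.56, 6.68 and 5.84 CPM in WT replicates 1, 2 and 3, from 121, 86 and 108 counts. In knockout replicates 1, 2 and 3 it had 6.09, 5.40 and 5.77 CPM, from 99, 97 and 163 counts. All knockout libraries lay inside the WT range. The means were 5.69 ± 1.07 CPM and 5.75 ± 0.342 CPM (SD, n = 3 each), and the log2 fold change was 0.046 (SE 0.16), which became -0.11 without WT replicate 1, the library in which Tekt2 was lowest. Without WT replicate 2, the library in which it was highest, the value was 0.16. The exact Poisson 95% interval was 3.78 to 5.45 CPM in WT replicate 1 and 5.34 to 8.25 CPM in WT replicate 2. These 2 intervals met only at their ends, which does not show that the libraries agree within counting error.

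The surroundings of Tekt2 bear on how its reads could have been counted. The gene is at chromosome 4, 126322121 to 126325688, minus strand, and 20.8% of its exon length is overlapped by exons of Gm12945, a noncoding transcript on the opposite strand with no row in the table. The gene next downstream, Adprhl2, which encodes an ADP-ribose hydrolase, begins 418 bp from the 3′ end of Tekt2 on the same strand. Adprhl2 was more abundant, at 29.5, 31.2 and 25.7 CPM in the WT libraries and 28, 27.2 and 28 CPM in the knockout libraries. Its value of -0.050 on the log2 scale (SE 0.082) missed the threshold (edgeR adjusted p-value 0.696). On the 5′ side of Tekt2 the nearest counted gene is Ago3, 6016 bp away on the same strand. Ago3 averaged 9.08 ± 2.87 CPM in the WT and 11.3 ± 2.36 CPM in the knockout libraries, with overlapping groups. Its value of 0.27 on the log2 scale (SE 0.2) also missed the threshold (edgeR adjusted p-value 0.349). Whether reads from Gm12945, Adprhl2 or Ago3 were counted for Tekt2 was not tested. No source used here says if reads were counted by strand.

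The make-up of the transcripts of Tekt1, Tekt2, Tekt3 and Tekt4 was compared within each library in CPM per kilobase of exon. This scale allows different genes to be added. Tekt5, a further tektin with counts, was left out of the sum. The summed level of the 4 tektins was 103, 120 and 98.1 CPM per kb in WT and 58.7, 55.8 and 60.3 CPM per kb in the knockout. Tekt1 made up 80.7 ± 0.279% of the sum in WT and 81.5 ± 1.10% in the knockout. The share of Tekt4 was 15.6 ± 0.433% in WT and 12.8 ± 0.870% in the knockout. Tekt2 took 2.32, 2.93 and 3.13% in the WT libraries and 5.46, 5.10 and 5.04% in the knockout libraries, and Tekt3 0.900 ± 0.117% in the WT and 0.455 ± 0.0848% in the knockout libraries. The total was lower while the share of Tekt1 stayed nearly even, and the shares of Tekt2 and Tekt3 moved apart. Tekt2 itself was at 3.0 ± 0.563 CPM per kb in WT and 3.03 ± 0.180 in the knockout. Its larger share therefore reflects the lower sum and not a higher level of Tekt2.

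**Figure D2:**
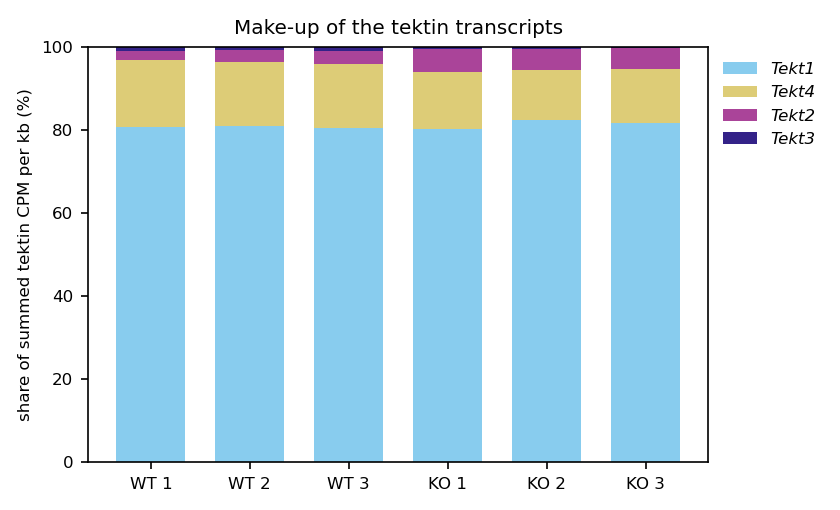
Share (%) of the summed CPM per kb of exon of Tekt1, Tekt2, Tekt3 and Tekt4 in each library, stacked to the whole. Tekt1 fills about the same share in both genotypes, and the Tekt2 segment is 2.32 to 3.13% in WT and 5.04 to 5.46% in the knockout libraries. The sum is lower in the knockout, while the mean level of Tekt2 was 3.0 CPM per kb in WT and 3.03 in the knockout.

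Among the 4 genes that are not tektins, Efhc2 and Efcab6 had the lower values. Efhc2 encodes an EF-hand protein of the doublet wall. It had 24.5, 26.1 and 25 CPM in the WT and 12.1, 11.4 and 11.4 CPM in the knockout libraries. Replicates were tight, with coefficients of variation of 3.23% and 3.28%, and the knockout level was 46.1% of WT (log2 fold change -1.12, SE 0.081). Efhc2 is on the X chromosome (17132049 to 17319368, minus strand), so the mix of sexes in a culture could touch it. Of 4 Y-linked genes, Eif2s3y (0.41) and Kdm5d (0.18) were called higher in the knockout, Ddx3y (0.040) and Uty (0.12) were not, and their part in the value of Efhc2 was not tested.

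Efcab6, which encodes a protein with many EF-hand calcium-binding motifs, had 8.06, 7.07 and 8.70 CPM in WT replicates 1, 2 and 3. In the knockout replicates it had 4.06, 3.68 and 3.50 CPM. The knockout libraries were again all below the WT libraries, at 47.2% of the WT mean, with a log2 fold change of -1.10 (SE 0.14). It is the longest gene of the set by exon length, 6408 bp, on chromosome 15 (83866712 to 84065379, minus strand).

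Enkur and Mns1 were abundant and had smaller differences. Enkurin, the product of Enkur, was first described as an adaptor of sperm calcium channels and sits inside the B-tubule. Its gene had 222, 240 and 212 CPM in WT libraries and 166, 150 and 178 CPM in knockout libraries. The latter kept 73.3% of the WT level (log2 fold change -0.45, SE 0.067). The groups were separated by less than in the other genes that were lower, yet no library crossed over. Enkur (chromosome 2, 21180731 to 21205365, minus strand) lies head to head with Thnsl1, 359 bp away on the opposite strand. WT libraries averaged 48.5 ± 2.30 CPM of Thnsl1 and knockout libraries 42 ± 1.61 CPM. The difference of -0.20 on the log2 scale (SE 0.064) passed the threshold (edgeR adjusted p-value 0.0339). That call was lost in 5 of the alternatives, with adjusted p-values by edgeR or DESeq2 of 0.0589 to 0.130.

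Mns1, whose product is needed for dynein arm assembly and left-right patterning, had 148, 156 and 146 CPM in WT and 105, 90.7 and 106 CPM in the knockout libraries. Its knockout level was 67.2% of WT (log2 fold change -0.57, SE 0.066). The gene is at chromosome 9, 72438011 to 72462025, plus strand, and 53.0% of its exon length is overlapped by Tex9 on the opposite strand, so its level is uncertain if strand was not used. For Tex9 the WT libraries averaged 57.8 ± 1.18 CPM and the knockout libraries 48.5 ± 4.79 CPM. Its difference of -0.25 on the log2 scale (SE 0.073) had an adjusted p-value of 0.0227 in edgeR, a call lost when WT replicate 1 or either of knockout replicates 1 and 2 was left out (adjusted p-values by edgeR of 0.0684 to 0.103). No exon of the other 6 genes overlaps another annotated gene.

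The order of the 8 genes by level per length was the same in both genotypes. In WT it ran from Enkur (144 ± 9.30 CPM per kb) through Tekt1 (86.6 ± 9.60), Mns1 (28 ± 0.961), Tekt4 (16.7 ± 1.63), Efhc2 (9.87 ± 0.319), Tekt2 (3.0 ± 0.563) and Efcab6 (1.24 ± 0.128) to Tekt3 (0.957 ± 0.0291). No neighbours in this order overlapped in range over the libraries of a genotype, and the order held with the longest transcript as the length. For Mns1 that length (5250 bp) is close to the exon length (5363 bp), and for Efhc2 and Tekt3 it is the same. The check therefore says little about how the ranks of these genes depend on the length taken. In the knockout the gap between Efhc2 (4.55 ± 0.149) and Tekt2 (3.03 ± 0.180 CPM per kb) was the narrowest in absolute terms among the 6 most abundant genes. The ranges of Efhc2 (4.45 to 4.72) and Tekt2 (2.84 to 3.20) still did not meet.

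**Figure D3:**
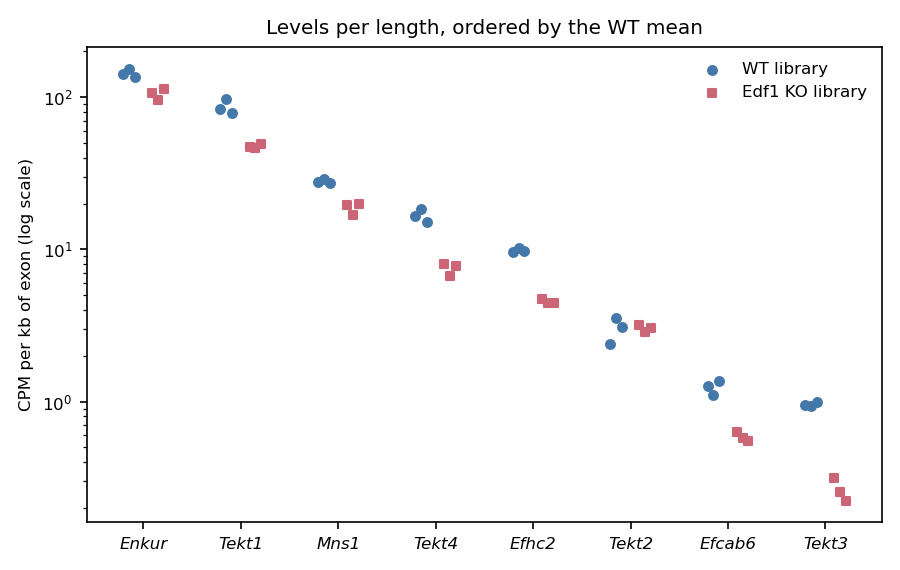
Level of each gene in CPM per kb of exon on a log axis, ordered by the WT mean, with WT libraries as circles and knockout libraries as squares. The levels span from 154 CPM per kb for Enkur in WT to 0.223 for Tekt3 in the knockout, and Tekt2 is the one gene whose groups share a range.

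Other genes for doublet inner proteins were then examined, from a list of 24 names of which 14 had a row in the table. All 14 had a value below 0, and 10 of them were called lower and 0 higher by edgeR, against 14.2% called lower and 12.7% called higher among all tested genes. The median log2 fold change was -0.63. The largest falls were in Cfap161 (from 112 ± 11.1 to 51.9 ± 3.52 CPM, or -1.11 on the log2 scale, SE 0.077), Spag8 (-1.0), Ribc1 (-0.88) and, level with each other, Cfap53 and Cfap126 (both -0.76). Adjusted p-values of these 5 genes by edgeR were at most 0.000678. Ribc1 and Spag8 encode further proteins bound inside the doublet wall.

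At the other end stood Cfap20, Tekt5, Nme7 and Cfap77. Cfap20, a protein of the inner junction where the B-tubule closes on the A-tubule, had 101, 115 and 101 CPM in the WT and 95, 94.5 and 93.1 CPM in the knockout libraries. Its value of -0.16 on the log2 scale (SE 0.062) had an adjusted p-value of 0.0708 in edgeR. Its groups did not overlap. The value passed with the GC and length correction (adjusted p-value 0.0356 by edgeR) and was -0.10 without WT replicate 2 (0.107). Tekt5, a tektin described in sperm, was near the bottom of the tested range, and its groups overlapped like those of Tekt2. It had a WT mean of 2.13 ± 0.230 CPM and a knockout mean of 1.83 ± 0.215 CPM. Its value was -0.25 on the log2 scale (SE 0.22, edgeR adjusted p-value 0.453), and -0.14 without knockout replicate 3. Nme7 fell by 0.42 on the log2 scale (SE 0.077, adjusted p-value 0.00139 by edgeR). Cfap77 had a value of -0.43 with overlapping groups and an adjusted p-value of 0.0588 by edgeR, and passed in 5 alternatives. Among these was the fit without knockout replicate 3, where it was -0.70 (adjusted p-value 0.0027 by edgeR), while without knockout replicate 1 it was -0.30 (0.204).

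**Figure D4:**
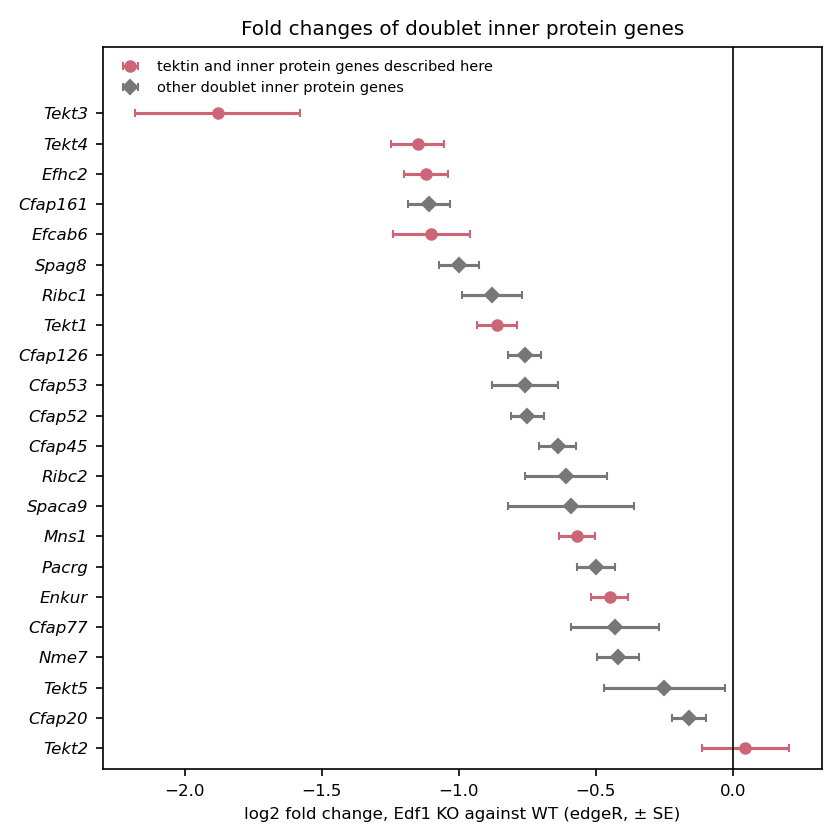
Log2 fold change of the knockout against WT (x axis, ± SE from edgeR) for the 8 genes described here (circles) and 14 other doublet inner protein genes (diamonds), ordered by value. Tekt2 at 0.046 is the only point above 0, and its error bar spans 0.

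A wider list of axoneme parts named genes of the dynein arms, docking and ruler proteins, the nexin link, radial spokes and the central pair. Of its 43 names 39 were found among the counted genes, and no docking gene was among them. Of the 38 that had enough counts to test, 33 were called lower and 0 higher, against 14.2% and 12.7% of all tested genes. All 38 had values below 0, from -1.78 for Spag17 to -0.14 for Rsph3a (0.021 without knockout replicate 3), with a median of -0.60. In the list of multiciliation regulators 8 of 11 genes were called lower and 0 higher (median -0.25), from -1.25 for Ccno, a regulator of centriole amplification, to 0.045 for E2f5, which did not pass the threshold. Without knockout replicate 2 only 5 of these 11 were called lower. Beside these lists, Tekt1, Tekt3, Tekt4, Efhc2 and Efcab6 lie below every list median and Enkur and Mns1 lie above that of the wider axoneme list.

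The nearest counted genes on each side of the 8 were read from the same fit. They lay between 359 bp (Thnsl1, beside Enkur) and 237196 bp (Fundc1, beside Efhc2) away, so not all are adjacent. Of 16 nearest neighbours that were counted, 13 were tested. Of these 3 were called lower (Pmp22, Fundc1 and Thnsl1) and 0 higher, against 14.2% and 12.7% of all tested genes. The 13 values ran from -0.23 for Pmp22 to 0.47 for Sult4a1, which did not pass the threshold (edgeR adjusted p-value 0.304, log2 fold changes of 0.28 to 0.62 with 1 library left out). The call of Pmp22 was lost without any 1 of the knockout libraries (adjusted p-values by edgeR of 0.0568 to 0.186), and its value was -0.14 without WT replicate 2. That of Fundc1 was lost when any library but WT replicate 2 was left out (0.0756 to 0.172 by edgeR).

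Genes with the most similar pattern over the 6 libraries were sought among 11022 genes with a mean log2 CPM of at least 3, by the root mean square difference of log2 CPM centred on each gene's mean. For Tekt1 they were Ccdc74a (0.026), Pifo (0.034) and Nnat (0.037). Mns1 was nearest to Pih1d2 (0.020), Agbl2 (0.029) and Akap14 (0.030), and Enkur to Fhad1 (0.027), Daw1 (0.034) and Mterf4 (0.036). Efhc2 was nearest to the multiciliation regulator Myb (0.032), the dynein heavy chain gene Dnah1 (0.039) and Plvap (0.044), and Tekt4 to Cfap73 (0.054), Ly86 (0.057) and Cfap161 (0.059). Efcab6 was nearest to Esyt2 (0.074), Hydin (0.076) and Ccdc87 (0.080). Tekt3 had no close match among these candidates, its nearest being the dynein heavy chain gene Dnah11 at 0.123. It had only 8 to 44 counts per library, below the level set for candidates. Counting error therefore adds to its distances, and how much was not tested. For Tekt2 the nearest were Rpain (0.064), Zfp995 (0.064) and Zfp120 (0.065). Their log2 fold changes of -0.019, 0.10 and -0.0052 lie near 0 by the way they were sought, since the pattern spans both genotypes. Genes of the axoneme, such as Dnah1, Dnah11 and Hydin, and genes that are not part of it, such as Nnat, Ly86 and Plvap, both appear among the matches.

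**Figure D5:**
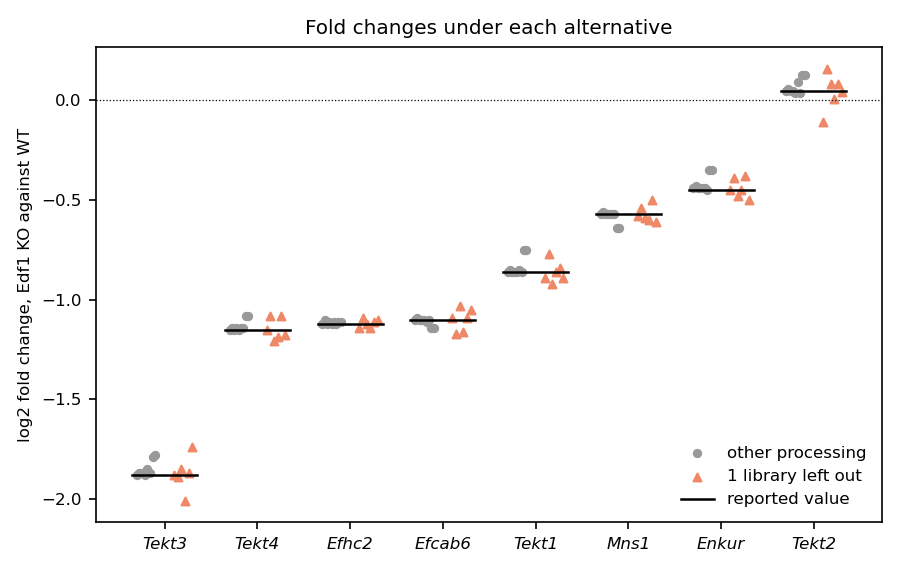
Log2 fold change of each gene as reported (line), under other processing (grey circles) and with 1 library left out (triangles). Tekt2 ranges from -0.11 to 0.16 and is the only gene whose points lie on both sides of 0, and the other 7 genes stay at or below -0.35.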

How the data were processed

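Per the labels' protocols, TRIzol was used to extract RNA and an MGIEasy kit for mRNA to prepare libraries. The authors deposited read counts per gene symbol, which are whole numbers with 1 column per library and no sign of normalisation. The submitters' processing notes name FastQC 0.11.2, cutadapt 1.11, HISAT2 2.1.0 and GRCm38. The counting program, annotation and strand setting are not given in the sources used here.

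Counts were filtered with filterByExpr (14243 of 22851 genes kept) and scaled with TMM in edgeR 4.0.16 under R 4.3.3. Knockout and WT were compared over all genes with edgeR's quasi-likelihood test without covariates, with Benjamini-Hochberg adjustment and a threshold of 0.05. A gene is called where it passes that threshold. Standard errors were obtained as the log2 fold change over the root of its F statistic. Log2 CPM used a prior count of 2. Lengths, positions and overlaps came from GENCODE M21 (GRCm38), promoter windows from RefSeq GRCm38.p6. The per-kb level is CPM divided by the union of exons in kilobases.

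The 8 genes and all lists were chosen with earlier results of these data known. Named in the text are the 8 genes, Edf1, and the 4 largest (with a tie, 5) and 4 smallest falls of the other inner proteins. Also named are the extremes of other lists, nearest counted or overlapping genes and the 3 nearest patterns. Y-linked genes, Pecam1, Cdh5 and Cldn5 were named after their values were seen. List names were matched by symbol or RefSeq synonym, and 10 of 24 inner protein names gave no match and were not used here. One further inner protein gene is not reported here and was taken off that list.

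Alternatives were DESeq2 1.42.0 and its size factors, limma 3.58.1 voom, library size alone, other count filters, the replicate number as a block, a GC and length correction, a threshold of 0.01, and each library left out. The fit was tested on simulated counts for 14152 genes with 200 changed 2-fold, of which 91.0% were recovered and 5.21% of calls were false. Far more genes were called in the data (3833), and no simulated library stood apart as WT replicate 2 does. These rates therefore need not carry over to the data.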

Additional observations from a re-analysis of the deposited data

How the results depend on the processing

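Each fold change of the 8 genes was recomputed under up to 15 alternatives, 119 values in all. The direction reversed in 1 of them, Tekt2 without WT replicate 1 (-0.11, in a range up to 0.16 without WT replicate 2). The other 118 moved by less than the SD of log2 CPM between replicates, pooled over both genotypes (0.0463 for Efhc2 to 0.203 for Tekt2). With 1 library left out a value can hardly move by more than this SD, so for those fits the comparison says little. Under the GC and length correction Tekt1 (-0.75) and Enkur (-0.35) moved by more than their SE (0.074 and 0.067). Ranges were -0.92 to -0.75 for Tekt1, -2.01 to -1.74 for Tekt3 (not tested under the filter on a mean of 50 counts), -1.21 to -1.08 for Tekt4, -1.14 to -1.09 for Efhc2, -0.50 to -0.35 for Enkur, -1.17 to -1.03 for Efcab6 and -0.64 to -0.50 for Mns1. With the GC and length correction Tekt2 was at 0.13. Adprhl2 reversed to 0.0016 under the replicate block with GC and length correction and to 1.8e-05 without WT replicate 2, in a range from -0.12 when 1 library was left out. Rsph3a reversed to 0.021 without knockout replicate 3, in a range from -0.31, and the cause was not tested for either gene.

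Of 3833 genes called over the whole table, 2213 passed at 0.01. Leaving out 1 library gave 5 to 9 multiciliation regulators called lower, the fewest without knockout replicate 2. Counts for the other lists stayed within 1.5 times.

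The replicate number as a block gave 4065 calls, 3683 of them shared, and Tekt2 at 0.040. Deviations from the group means correlated at only 0.069, 0.060 and 0.037 between same-numbered libraries, so no pairing was assumed, although every library correlated best with its own number. Tekt2, Tekt3 and Efcab6 rest on 8 to 214 counts per library, which limits their precision.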

Other observations

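Within a genotype the 8 genes deviated from their group means by different amounts in different libraries, on the log2 CPM scale. In knockout replicate 2 all 8 lay below their knockout mean (median deviation -0.0656). In knockout replicate 1 7 of 8 were above it (0.0737), and in knockout replicate 3 5 of 8 (0.0295, from -0.191 to 0.114). In WT replicate 2, the library that stood apart in the principal component analysis, 6 of 8 were above the WT mean (0.0779), Tekt2 by the most (0.245). In WT replicate 1 1 of 8 was above it (-0.0189) and in WT replicate 3 3 of 8 (-0.0238). Over all 14243 tested genes 48.6 to 52.2% were above the group mean in each library, with median deviations of -0.00315 to 0.00867. Whether the 8 genes deviate together more than other genes was not tested.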
